A study of Mus musculus with 8 samples.

Results

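Nearly all annotated microRNA (miRNA) precursor loci were listed at 0 in RNA sequencing libraries of mouse embryonic hearts, while 1 of them, *Mir703*, was the highest feature in 4 of the 8 libraries. The loci examined were the rows of the deposited table whose symbol names a miRNA gene, whose length is under 300 bp and whose FPKM was above 0 in at least 2 of the 8 libraries. FPKM stands for the fragments assigned to a locus, scaled to its length and to all mapped fragments of the library. Values above 0 among miRNA precursor loci went down to 9.03e-11, and how fragments were assigned is not given. A value above 0 is thus not taken as proof that a fragment was seen. Of 1168 precursor loci under 300 bp, 4 met this rule, namely *Mir703*, *Mir8112*, *Mir3473f* and *Mir8114*, out of 24930 rows in all. They were chosen by their FPKM in these same libraries, so their presence is a description and not a finding. A further 7 precursor loci were above 0 in exactly 1 library, and 1157 were listed at 0 in all libraries.

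A miRNA is first part of a long primary transcript. In the nucleus the Microprocessor, made of the nuclease Drosha and its RNA-binding partner Dgcr8, cuts out a hairpin, the precursor, which Dicer then trims in the cytoplasm to the mature miRNA that guides Argonaute proteins to messenger RNAs. In the embryonic heart, miR-1 and miR-133 are known for their part in muscle differentiation. A row of the table covers only the stretch of genome that encodes the hairpin, and the RNA from which its fragments came was not tested. The mature miRNA was not measured by these libraries.

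The libraries came from heart tubes of C57BL/6 embryos at embryonic day 8.5 (E8.5) or 9.5 (E9.5), with 2 libraries in each of 4 groups. The wild type (WT) group was labelled as such, and the study describes these controls as *Dgcr8* loxP/loxP; Rosa26 mT/mG/+ embryos without Cre. The *Dgcr8* conditional knockout (cKO) group was labelled Mesp1Cre/+; Dgcr8-/- and described as carrying the same loxP alleles and reporter together with the *Mesp1*-Cre allele, so that only cells descended from *Mesp1*-expressing early mesoderm lose *Dgcr8*. All groups thus shared the loxP alleles and the reporter, and the Cre allele was present only in cKO hearts. At E8.5 *Dgcr8* had 7.10 and 8.60 FPKM in WT against 1.64 and 4.67 in cKO hearts, and at E9.5 3.49 and 3.23 against 1.15 and 1.77. No cKO library reached a WT library of its stage. All 7 cardiomyocyte markers examined were above 0 in every library, with a summed level of 24131 to 76075 FPKM. At E9.5 this sum was 54897 and 52853 FPKM in WT against 75465 and 76075 in cKO hearts. The sum of 6 endothelial and endocardial markers was 44.8 and 43.7 FPKM against 68.6 and 71.0 at E9.5. At E8.5 the genotypes overlapped in both sums. Markers of yolk sac endoderm were also present, at 732 to 6643 FPKM summed over 5 genes, as were markers of primitive red blood cells. The list of decidual stroma markers held *Prl8a2*, *Prl3c1*, *Des*, *Hand2* and *Igfbp1*. The summed level of these 5 genes was highest in E8.5 cKO replicate 2 (5331 FPKM), the library with the highest *Mir703*. It was next in E8.5 WT replicate 2 (1393 FPKM), where *Mir703* was listed at 0. It was lowest in E8.5 cKO replicate 1 (248 FPKM), which had the second highest *Mir703*. The sum was not split by gene, and how much of it came from heart muscle was not tested. The part of these genes in the *Mir703* value was not tested. Relative depth, read from rows below 0.3 FPKM, ranged from 1 to 1.45. The absolute depth is unknown, so a 0 says no more than that the table lists the row at 0.

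The mature sequences of the loci are shown because they identify what each row encodes. All 4 were found in RefSeq (GRCm38.p6) by symbol and position, and capitals mark the seed, bases 2 to 8, through which a miRNA pairs with its targets.
mmu-miR-703: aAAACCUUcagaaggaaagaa
mmu-miR-8112: uCUCCGCCaccuccaccgca
mmu-miR-3473f: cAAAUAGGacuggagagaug
mmu-miR-8114: uCACCCAUcuccucuccgccu
The 4 seeds differed from each other, and 0 of the other mature miRNAs among the 1679 in the RefSeq table shared any of them. *Mir703* lies on chromosome 5 (98475556 to 98475664, minus strand, 109 bp) and *Mir8112* on chromosome 6 (71271671 to 71271801, plus strand, 131 bp). *Mir3473f* lies on chromosome 1 (106546496 to 106546631, minus strand, 136 bp), as does *Mir8114* (153899926 to 153900036, plus strand, 111 bp). These are positions on GRCm38, counted from 1.

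The hairpins differed widely in composition. The share of G and C was 31.2% in *Mir703*, 78.6% in *Mir8112*, 47.8% in *Mir3473f* and 61.3% in *Mir8114*. The predicted folding energy was weakest for *Mir703*, at -20 kcal/mol, which also held a run of 9 identical bases. It was -71.5 kcal/mol for *Mir8112*, -69.5 for *Mir3473f* and -38.3 for *Mir8114*. Each hairpin had 1 exact copy in the older mouse assembly NCBIM37 (mm9). Windows of 31 bases were then counted in that assembly, the build named for read mapping, to see how much of each hairpin also occurs elsewhere. All 101 windows of *Mir8112* occurred once, and 76 of 81 windows of *Mir8114* did. In *Mir3473f* 68 of 106 windows occurred once, and in *Mir703* 27 of 79. The plot of window matches shows where along each hairpin the repeated windows lay. Over the 908 of the 1168 precursor loci that were matched to a hairpin, 853 had windows that all occurred once, against 1 of the 4 here. With 77.7% of the loci matched, this is no valid comparison over all loci and is given as a description.

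**Figure D1:**
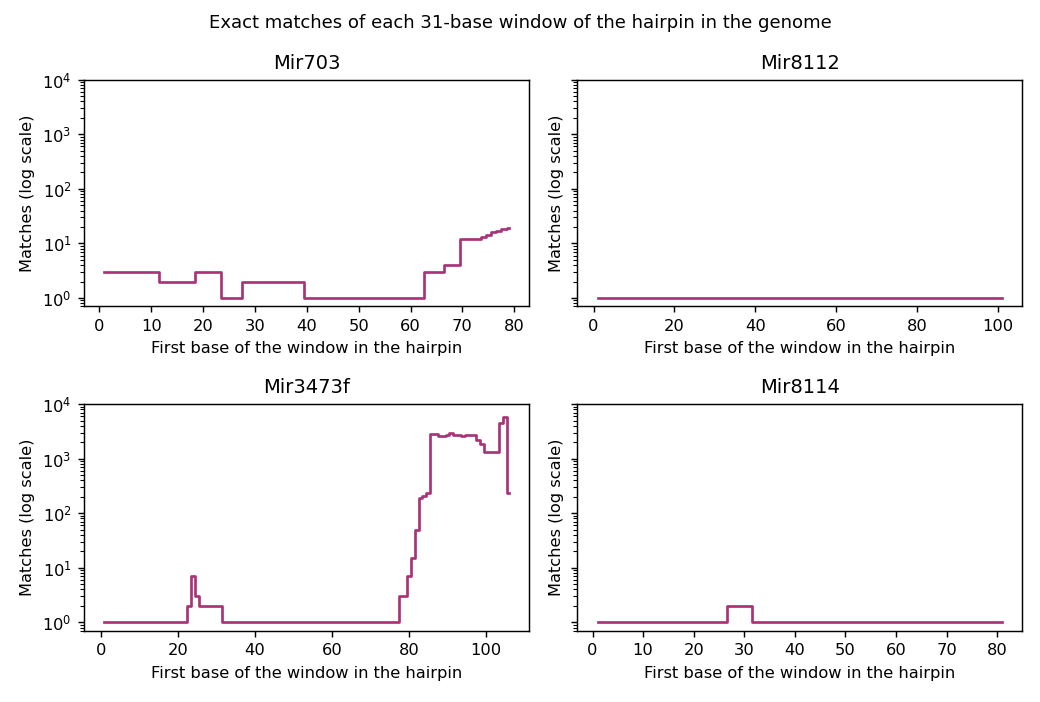
Exact matches in NCBIM37 (both strands, log scale) of each 31-base window of the 4 hairpins, plotted by the first base of the window in the hairpin. Windows of *Mir8112* stay at 1 match, those of *Mir703* rise to 19 at the 3' end and those of *Mir3473f* to 5749.

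The loci above 0 were mostly among the longer ones. The 1168 precursor loci were 20 to 139 bp long, with a median of 80 bp. The length of the shortest of the 4 loci, 109 bp, was used to divide them, so the division was set by detection itself and is a description. Of the 150 loci of 109 bp or more, 10 were above 0 in at least 1 library. Of the 1018 shorter loci, 1 was, *Mir5625* (80 bp), at 1.31e-06 FPKM in WT replicate 1 of E8.5. Among loci of 109 to 119 bp, 6.897% were above 0 in any library, and among those of 120 to 139 bp, 6.349% were, so the share did not rise further with length. Other short rows of the table were all listed at 0 below 120 bp, also from 109 to 119 bp where 6 of 87 precursor loci were above 0, with 0 of 109 rows above 0 under 100 bp, 0 of 5 between 100 and 108 bp, and 0 of 13 between 109 and 119 bp. From 120 to 139 bp, 14 of 28 such rows were above 0, and from 140 to 299 bp 21 of 29. Length and type of RNA were not separated by a test.

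**Figure D2:**
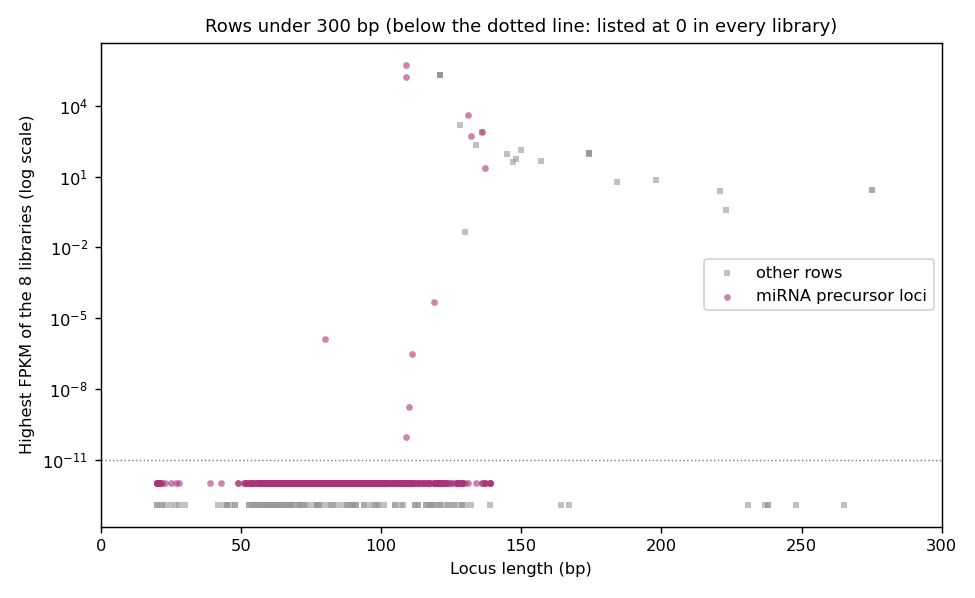
Highest FPKM over the 8 libraries (log scale) against locus length in bp, for the 1168 precursor loci (circles) and the 184 other rows under 300 bp (squares). Nearly all precursor loci lie below the dotted line, listed at 0 in every library, and 10 of the 11 above it are at least 109 bp long.

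Each library held 2 or 3 of the 4 loci above 0. Both E8.5 WT libraries held 2, the E8.5 cKO libraries 3 and 2, and each E9.5 library 2. No locus was above 0 in all 8 libraries. *Mir8112* came closest, with 7 libraries, followed by *Mir703* and *Mir3473f* with 4 each and *Mir8114* with 2. Counted over all 24385 features (1 row per symbol), 15533 to 16930 were above 0 in a library.

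*Mir703* was either listed at 0 or the highest feature of its library. At E8.5 it was listed at 0 in both WT hearts and had 344694 and 545968 FPKM in cKO hearts. At E9.5 it had 134417 FPKM in WT replicate 1 and 324251 FPKM in cKO replicate 1, and was listed at 0 in replicate 2 of both genotypes. The 4 libraries above 0 thus included both E8.5 cKO libraries and the first replicate of each E9.5 group, and the E9.5 genotypes overlapped. In these 4 libraries the locus ranked first, at 5.68, 5.89, 2.90 and 1.70 times the next feature, which in each case was a ribosomal RNA row. It alone held 19.1% and 23.8% of the summed FPKM of the E8.5 cKO libraries, 8.61% in E9.5 WT replicate 1 and 9.85% in E9.5 cKO replicate 1.

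**Figure D3:**
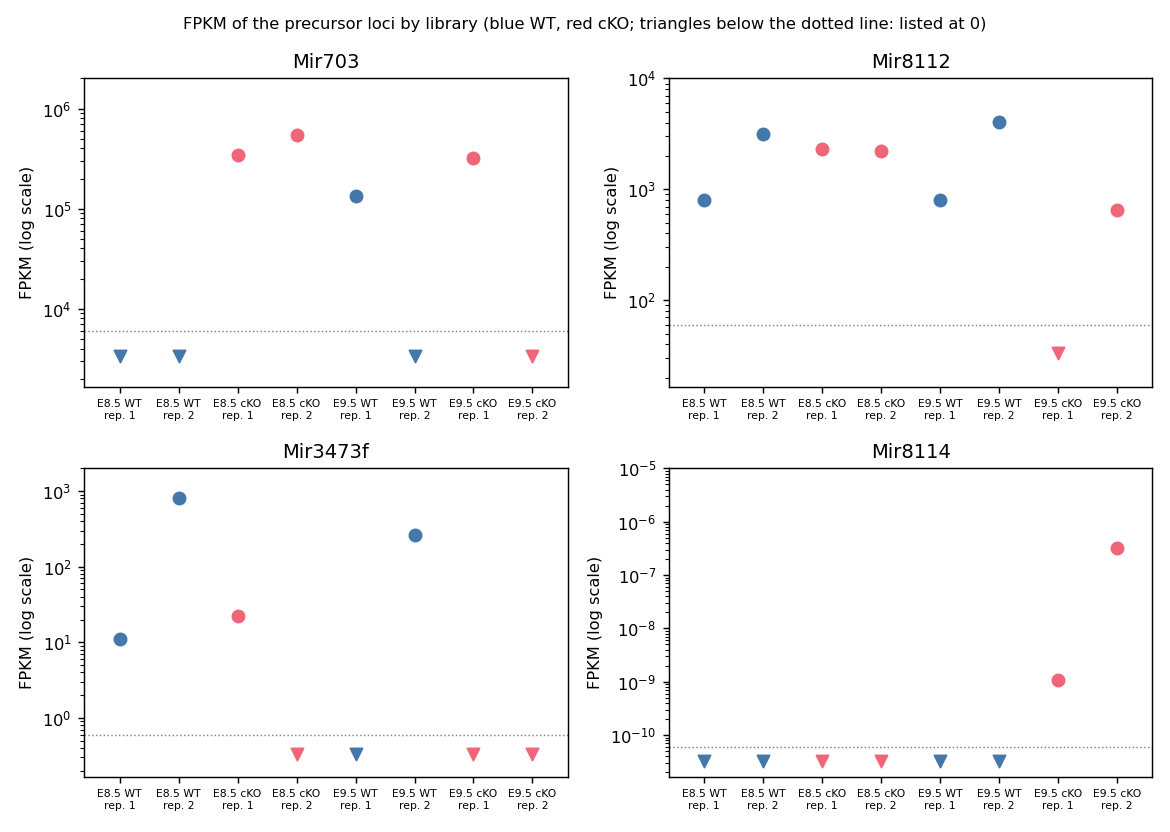
FPKM (log scale) of the 4 precursor loci in each of the 8 libraries, with WT in blue and cKO in red. Points are single libraries and triangles below the dotted line mark libraries in which the locus was listed at 0. *Mir703* lies between 134417 and 545968 FPKM wherever it is above 0.

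The genome around *Mir703* gave no row of matching level. The locus lies within *1700007G11Rik* (chromosome 5, 98329304 to 98802019), on the opposite strand and outside its exons in the gencode vM1 annotation of NCBIM37, and that row had 0 to 0.214 FPKM. Windows of the hairpin were found at 19 other places in NCBIM37, 5 of them overlapping an annotated exon. The place with the most shared windows among those in a protein-coding exon was the UTR of *Eef1a1*, the elongation factor that brings aminoacyl-tRNA to the ribosome, with 29 of the 79 windows (NCBIM37, chromosome 9, 78326335 to 78326415). The vM1 annotation places a gene called mmu-mir-703 at this site, whereas the table and RefSeq place *Mir703* on chromosome 5. *Eef1a1* was singled out for this match, after the values had been seen. At E8.5 it had 3858 and 3681 FPKM in WT against 3391 and 6314 in cKO hearts, and at E9.5 7761 and 7763 against 2950.04 and 6944. *Eef1a1* was at 2950.04 FPKM or more in every library, of which 4 had *Mir703* listed at 0. It was nearly equal in the E9.5 WT replicates, of which replicate 1 had *Mir703* above 0 and replicate 2 did not. Where *Mir703* was above 0, its FPKM was 17.3 to 109.9 times that of *Eef1a1*. The loci differ in length, at 109 and 3271 bp, so this is not a ratio of fragments. Whether fragments of *Eef1a1* contributed to the *Mir703* value was not tested.

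A precursor locus of the same length stood just outside the rule. *Mir690* (chromosome 16, 28599935 to 28600043, 109 bp) had 162125 FPKM in E9.5 cKO replicate 1 and was listed at 0 in the other 7 libraries. In that library the *Mir703* value was 2.00001 times the *Mir690* value. The other loci seen in a single library were *Mir1983* at 538.5 FPKM in E9.5 WT replicate 2 and *Mir8111* at 23.7 FPKM in E8.5 cKO replicate 1, and *Mir8097*, *Mir5625*, *Mir719* and *Mir686* at 4.83e-05 FPKM or less. On the inner side of the threshold, *Mir8114* met the rule with 2 libraries.

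*Mir8112* had the most regular values. At E8.5 it had 807 and 3130.5 FPKM in WT against 2302 and 2237 in cKO hearts, and at E9.5 801 and 4051 against 0 and 649. At E8.5 the cKO libraries lay between the WT libraries, and at E9.5 both cKO libraries lay below both WT libraries. By rank it was the 35th to 241st feature of its library wherever it was above 0. The second WT library was the higher one at both stages.

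The *Mir8112* locus lies just upstream of *Krcc1*, a coiled-coil protein gene whose row begins 217 bp downstream of the hairpin (chromosome 6, 71272019 to 71285319). In the vM1 annotation the hairpin lies in a UTR exon of *Krcc1* on the same strand, and inside the gene of *Smyd1*, a muscle-specific histone methyltransferase on the other strand, outside its exons. At E8.5 *Krcc1* had 13.6 and 12.7 FPKM in WT against 8.56 and 14.3 in cKO hearts, and at E9.5 3.97 and 15.8 against 4.48 and 3.004. Like *Mir8112*, it was highest in E9.5 WT replicate 2 and lower in both E9.5 cKO libraries than there, but its E9.5 genotypes overlapped. In the 7 libraries where the locus was above 0, its FPKM was 59.5 to 269.04 times that of *Krcc1*. The loci differ in length, at 131 and 13301 bp, so this is not a ratio of fragments. *Smyd1* had 91.5 to 236.5 FPKM and its genotypes overlapped at both stages. In cKO hearts at E9.5 the log2 change was -0.96 ± 0.53 (SE) for *Krcc1* (limma adjusted p = 0.431) and 0.10 ± 0.49 for *Smyd1* (limma adjusted p = 0.963).

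*Mir3473f* was above 0 in 3 WT libraries and 1 cKO library. At E8.5 it had 10.99 and 799.951 FPKM in WT against 22.1 and 0 in cKO hearts, and at E9.5 0 and 260.4 in WT while both cKO libraries listed it at 0. The second WT library of each stage was the highest, the E8.5 genotypes overlapped, and at E9.5 the first WT library was at 0 like the cKO libraries. The hairpin lies in an intron of *Bcl2* (chromosome 1, 106538176 to 106714290), a gene for an inhibitor of apoptosis, which at E8.5 had 0.854 and 1.09 FPKM in WT against 1.10 and 0.988 in cKO hearts, and at E9.5 0.899 and 1.68 against 3.17 and 1.58. *Bcl2* was thus highest in a library in which *Mir3473f* was listed at 0.

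The *Mir3473f* hairpin was the most repeated sequence among the 4. It is shown because its 3' part occurs throughout the genome, with the window of 31 bases found most often (bases 105 to 135 of the hairpin) in capitals.
Mir3473f hairpin: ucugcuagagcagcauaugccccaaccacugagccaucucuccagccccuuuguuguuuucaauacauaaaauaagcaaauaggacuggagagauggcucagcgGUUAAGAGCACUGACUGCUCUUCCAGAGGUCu
This window had 5749 exact matches in NCBIM37, whereas the 12 windows that hold the whole mature sequence (bases 77 to 96) had 1 match each. In 2 libraries the value of *Mir3473f* was the same, to 6 digits, as that of another row of 136 bp, the small nucleolar RNA gene *Snora16a* (chromosome 4, 132309465 to 132309600). The shared values were 799.951 FPKM in E8.5 WT replicate 2 and 260.447 FPKM in E9.5 WT replicate 2. In E8.5 WT replicate 1 *Mir3473f* was at 0.0714 of the *Snora16a* value of 153.9 FPKM. *Snora16a* was at 439 FPKM in E8.5 cKO replicate 2 and 250.7 in E9.5 cKO replicate 2, where *Mir3473f* was listed at 0, and it was listed at 0 in the first replicates of the other 3 groups. *Snora16a* was thus higher in the second replicate of every group, and *Mir3473f* in that of both WT groups.

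**Figure D4:**
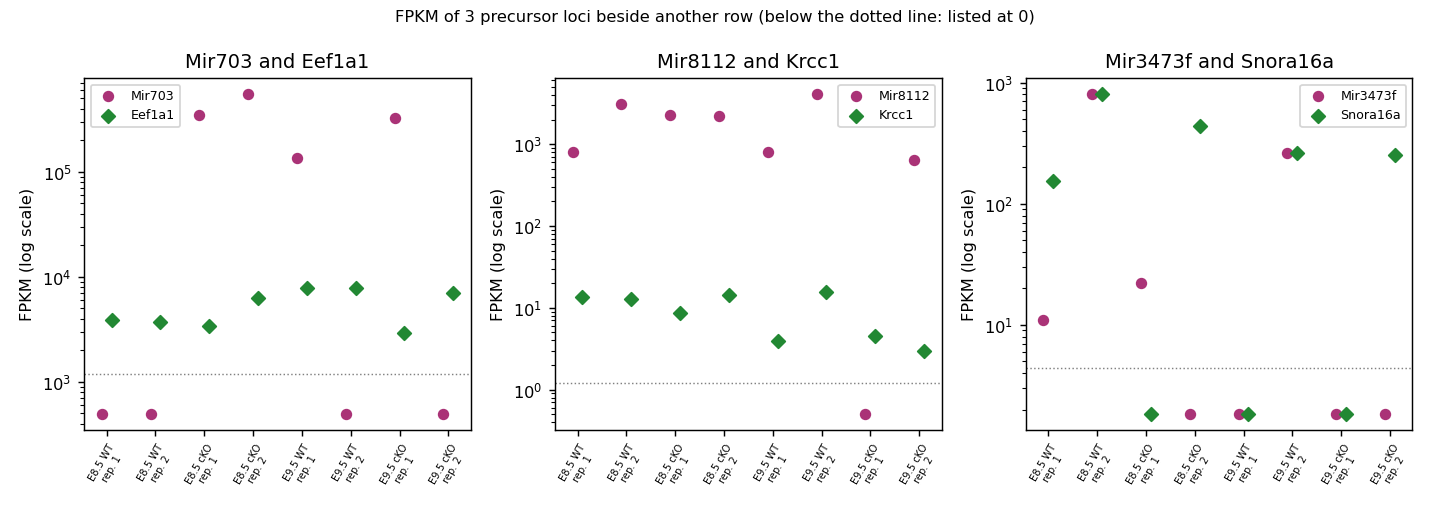
FPKM (log scale) by library of *Mir703* beside *Eef1a1*, *Mir8112* beside *Krcc1*, and *Mir3473f* beside *Snora16a*. Circles are the precursor loci, diamonds the other rows, and points below the dotted line are listed at 0. *Mir3473f* and *Snora16a* coincide in the second WT replicate of each stage.

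*Mir8114* was above 0 only in the E9.5 cKO libraries, at 1.07e-09 and 3.18e-07 FPKM. It met the rule through this single group, so its difference from the other groups follows from the rule, and values this small are far below the 1 FPKM used as a filter. The locus overlaps the first exon of *Glul*, which encodes glutamine synthetase (chromosome 1, 153899929 to 153909723), by 108 bp. At E8.5 *Glul* had 28.5 and 21.6 FPKM in WT against 32.5 and 26.3 in cKO hearts, and at E9.5 12.9 and 10.1 against 19.1 and 15.9. Its E9.5 cKO libraries lay above both WT libraries, and the log2 change was 0.57 ± 0.27 (SE, limma adjusted p = 0.369). The 4 single-library loci with comparably small values also overlapped rows above 1 FPKM on average: *Mir719* lies in *Nupl1*, *Mir5625* at *Slc35f6*, *Mir686* in *Psmb5* and *Mir8097* in *Rnf19a*. Of all 1168 precursor loci, 555 overlapped a longer row with a mean of at least 1 FPKM. Of these 555, 6 were above 0 in any library, beside 11 of all 1168 (0.942%).

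The effect of *Dgcr8* deletion on the loci was compared at each stage with limma on log2(FPKM + 1). The test covered 10018 features with a mean of at least 1 FPKM, and a call needed both a 1.5-fold change and an adjusted p under 0.05. *Mir703*, *Mir8112* and *Mir3473f* entered the test and *Mir8114* did not. At E8.5, 0 of the 3 loci were called, against 0.00998% of all features. The adjusted p was 0.59 for *Mir703*, 0.94 for *Mir8112* and 0.61 for *Mir3473f*. The unadjusted limma p was under 0.05 for 1 of the 3 loci, *Mir703*, and for 782 of the 10018 features. When limma was run on the E8.5 libraries alone, *Mir703* was the 1 locus called, with an adjusted p of 0.000109, and also the 1 feature called among all 10018 (0.00998%). Its standard error was 0.31 in that fit, in which both WT libraries were at exactly 0, and 6.28 when all 8 libraries shared 1 estimate of the spread. No fold change is given for it, since it was listed at 0 in both WT libraries. The log2 change of *Mir8112* was 0.51 (SE 2.47) and that of *Mir3473f* -4.35 (SE 2.77), and in both loci the WT and cKO libraries overlapped. The value of *Mir8112* turned to -0.46 without E8.5 WT replicate 1 and was 1.49 without E8.5 WT replicate 2. The value of *Mir3473f* was -1.32 without E8.5 WT replicate 2, -2.08 without E8.5 cKO replicate 2 and -7.38 without E8.5 WT replicate 1, and none of these passed the test. Without E8.5 cKO replicate 1 the remaining cKO library is listed at 0, and no fold is given.

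By detection, *Mir703* was the 1 locus above 0 in both E8.5 cKO libraries and in neither E8.5 WT library. That pattern was seen in 0.447% of all 24385 features, which include rows listed at 0 in every library. The loci here were chosen for being above 0 in at least 2 libraries, so this share is not a like background. Counted by libraries that did not overlap and means at least 1.5-fold apart, *Mir703* was also the 1 locus higher in E8.5 cKO (0.439% of the tested features). By that count 0 loci were lower (11.9% of the tested features). After median-ratio scaling, which sets the median feature equal between libraries, the loci were counted alike, but 2.55% of features were higher and 1.58% lower. With 2 libraries a side, the smallest two-sided p of an exact permutation test is 0.33.

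At E9.5 none of the 3 loci was called in cKO against WT hearts (0 by limma, against 0.18% of features). For *Mir8112* the log2 change was -6.14 ± 2.47 (SE, limma adjusted p = 0.29), and it was one of 1575 features with an unadjusted limma p under 0.05. The size of this change depends on the pseudocount, since the locus was listed at 0 in E9.5 cKO replicate 1. Without that library the log2 change was -1.47. This fit has 1 cKO library, which is assumed to vary like the other groups. Without E9.5 cKO replicate 2 the remaining cKO library is the one listed at 0, and no fold is given. For *Mir703* the log2 change was 0.64 ± 6.28 (SE, limma adjusted p = 0.985), and its direction was fixed by which library was left out. It was -7.88 without E9.5 WT replicate 2 and 9.79 without E9.5 cKO replicate 2, where the group left with 1 library was above 0. Both values depend on the pseudocount, since the other genotype held a library listed at 0. Without the first replicate of either genotype that group was listed at 0, and no fold is given. For *Mir3473f*, at 0 in both cKO libraries, the limma adjusted p was 0.544. *Mir8112* was the 1 locus whose groups did not overlap and lay at least 1.5-fold apart, lower in cKO (13.8% of the tested features), and 0 loci were higher (8.63%). After median-ratio scaling it was again the 1 locus, with 12.5% of features higher and 11.2% lower. *Mir8114* was the 1 locus above 0 in both cKO and no WT library, which follows from the rule by which it was chosen. Of all features, which were not chosen so, 0.673% had that pattern.

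Over both stages together 0 of the 3 loci were called (0.0399% of features), with a limma adjusted p of 0.288 for *Mir703*, 0.433 for *Mir8112* and 0.299 for *Mir3473f*. The libraries of the genotypes overlapped for all 3, against 0.14% of features that were apart and higher in cKO and 0.838% that were apart and lower, or 0.729% and 0.739% after median-ratio scaling. The change in cKO hearts also did not pass the test of a difference between the stages for any of the 3 (0 called, 0.0399% of features), with limma adjusted p = 0.731 for *Mir703*, 0.742 for *Mir8112* and 0.991 for *Mir3473f*.

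Between the stages, many features fell in FPKM. The median log2 change of all tested features was -0.84 in WT and -0.64 in cKO hearts, and about 0 after median-ratio scaling (-0.04 and -0.05), so the direction of most features between the stages depends on the scaling. In WT hearts 0 of the 3 loci were called between the stages, against 48.1% of features, and 0 were apart in either direction (2.8% higher and 66.9% lower among all features). After median-ratio scaling 0 were called or apart as well, but only 3.2% of features were called higher and 0.689% lower, and 15.4% were apart and higher and 11.4% apart and lower. In cKO hearts 0 were called as well, against 30.6% of features, or 3.99% higher and 0.769% lower after median-ratio scaling. *Mir8112* and *Mir703* were lower in both E9.5 cKO libraries than in both E8.5 cKO libraries (2 loci, 50.6% of features), and 0 were higher (4.27%). After median-ratio scaling *Mir8112* alone was, and *Mir703*, at 324251 FPKM in E9.5 cKO replicate 1 against 344694 in E8.5 cKO replicate 1, was not, with 17.5% of features higher and 17.3% lower. For *Mir8112* the log2 change in cKO hearts was -6.48 ± 2.47 (SE, limma adjusted p = 0.0769). The size of this change also depends on the pseudocount, since the locus was listed at 0 in E9.5 cKO replicate 1. Without that library the log2 change was -1.81, again with 1 library left in that group. Without E9.5 cKO replicate 2 the group is listed at 0, and no fold is given. The comparisons share libraries and are not independent of each other.

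The loci took very different shares of the summed FPKM. FPKM is scaled to length, so for loci this short a share of summed FPKM is not a share of fragments. At E8.5 the loci made up 0.0677% and 0.2997% of the summed FPKM in WT against 19.3% and 23.9% in cKO hearts. At E9.5 they made up 8.66% and 0.292% against 9.85% and 0.0409%. The 4 libraries above 1% are those in which *Mir703* was above 0. With the loci left out, the log2 of the total would be lower by at most 0.393, in E8.5 cKO replicate 2. A larger share belonged to 10 rows of 121 bp on chromosome 8 with equal values, whose 3 symbols are ribosomal RNA genes in RefSeq, at 29.7% to 58.0% of the summed FPKM. Their share was highest in E9.5 cKO replicate 1, the library that also held *Mir703* and *Mir690*, and lowest in E9.5 WT replicate 1, which held *Mir703* as well. The part of ribosomal RNA fragments in the values of the precursor loci was not tested.

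**Figure D5:**
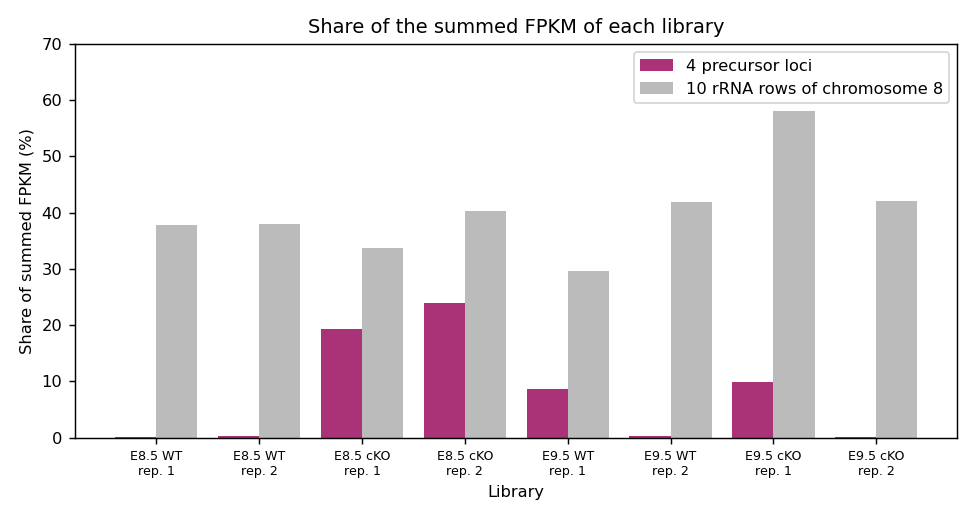
Share of the summed FPKM of each library (%) held by the 4 precursor loci and by the 10 ribosomal RNA rows of 121 bp. The precursor loci reach 8.66% to 23.9% in 4 libraries and stay at or under 0.2997% in the other 4.

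Precursor loci of miRNAs well known in the heart were looked up as well. In the study's separate miRNA sequencing of E9.5 wild type hearts, miR-1 was the most abundant, and miR-126 and miR-133 were also found. A 0 listed here is thus no sign that the mature miRNA was absent. Of 74 listed loci found in the table, 0 were above 0 in any library, beside 11 of all 1168 (0.942%), so the count is near the background. They comprised 10 loci of muscle miRNAs (the miR-1, miR-133, miR-206, miR-208 and miR-499 families), 13 of vessel wall miRNAs such as miR-126, 15 of the miR-17 family clusters, 14 of early embryo miRNAs such as the miR-302 cluster, 3 of erythroid miRNAs, 12 of the let-7 family and 7 of miRNAs that are made without the Microprocessor. Their loci were 58 to 128 bp long. Several lie in rows that were well above 0. *Mir208a* and *Mir208b* lie in *Myh6* and *Myh7*, which encode the cardiac myosin heavy chains, and these rows had 245.7 to 916 and 116.5 to 1337 FPKM. These 2 hosts thus had FPKM in every library, while the precursors within them were listed at 0. Of the 10 muscle loci, only these 2 lie on a longer row with a mean of at least 1 FPKM. *Myh7b*, the other muscle myosin row examined, had 0.207 to 0.919 FPKM.

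The genes that make and use miRNAs were measured as long rows. All 22 of the listed pathway genes were above 0 in all 8 libraries, and 18 entered the test. In cKO against WT hearts 0 of the 18 were called at E8.5 and 0 at E9.5, where 0.00998% and 0.18% of all features were, with a median log2 change of -0.18 and -0.20, beside -0.28 and -0.07 over all features. For *Dgcr8* itself the log2 change was -1.19 ± 0.36 (SE, limma adjusted p = 0.590) at E8.5 and -0.84 ± 0.36 (limma adjusted p = 0.317) at E9.5. Between the stages in WT hearts 8 of the 18 were called lower and 0 higher, beside 46.7% of all features called lower, with a median log2 change of -0.76 beside -0.84 over all features. After median-ratio scaling 1 of the 18 was called, lower, beside 0.689% of all features called lower, namely *Lin28a*, which blocks let-7 maturation. It fell by 2.90 on the log2 scale (SE 0.29, limma adjusted p = 0.00517), and its log2 change after that scaling was -1.95 (SE 0.31, limma adjusted p = 0.0194). *Drosha*, the nuclease partner of *Dgcr8*, had a log2 difference of -0.76 before the scaling and 0.16 after it, and *Xpo5*, which exports the precursor, one of -0.79 and 0.13, so their direction depended on the scaling.

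Non-coding transcripts that host miRNAs gave values where the precursor rows did not. Of 13 listed hosts, 12 were above 0 in at least 1 library and 7 entered the test, of which 1 rose in cKO hearts at E8.5 (*Mir17hg*) and 2 at E9.5 (*Mir17hg* and *Mir22hg*). Over all features 0.00998% and 0.17% were called higher in these comparisons, and with all 8 libraries in the fit *Mir17hg* was the 1 feature called at E8.5. At E8.5 *Mir17hg*, the host of the miR-17 cluster, had 1.08 and 1.31 FPKM in WT against 18.2 and 21.7 in cKO hearts, and at E9.5 0.241 and 0.768 against 11.3 and 10.9. The log2 change was 3.25 ± 0.26 (SE, limma adjusted p = 0.0146) at E8.5 and 3.03 ± 0.26 (limma adjusted p = 0.00828) at E9.5. At E8.5 its call held in 11 of 17 alternatives (limma adjusted p from 0.0129 to 0.205). It was lost without E8.5 WT replicate 1, without either E9.5 cKO replicate, with a pseudocount of 0.1, with the filter of 2 libraries above 0, and in the fit on the E8.5 libraries alone. At E9.5 it held in 13 of 17 (limma adjusted p from 0.00399 to 0.154) and was lost without E9.5 WT replicate 1, without either E9.5 cKO replicate and in the fit on the E9.5 libraries alone. At E8.5 *Mir22hg*, the host of miR-22, had 1.79 and 1.73 FPKM in WT against 8.83 and 9.55 in cKO hearts, and at E9.5 0.248 and 0.477 against 4.80 and 3.64. The log2 change was 1.88 ± 0.23 (SE, limma adjusted p = 0.0991) at E8.5 and 1.93 ± 0.23 (limma adjusted p = 0.0234) at E9.5, and the difference between the stages was 0.05 (limma adjusted p = 0.987). The *Mir22hg* call at E9.5 held in 7 of 17 alternatives (limma adjusted p from 0.00992 to 0.337) and was lost, among others, when any E8.5 WT, E9.5 WT or E9.5 cKO library was left out and with the replicate block (limma adjusted p = 0.0772). At E8.5 it passed in 1 of 17, under quantile normalization (limma adjusted p = 0.0439). Over the alternatives other than ranks, the log2 change of *Mir17hg* ran from 1.42 to 3.95 at E8.5 and from 1.01 to 4.36 at E9.5. That of *Mir22hg* ran from 0.71 to 2.32 at E8.5 and from 0.46 to 3.26 at E9.5. The lowest values came with a pseudocount of 10 and the highest with 0.1. For both hosts the libraries of the genotypes did not overlap at either stage. *Mir19b-1* and *Mir92-1*, the precursor loci on the *Mir17hg* row, were listed at 0 in every library.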

How the data were processed

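Total RNA of E8.5 and E9.5 hearts was amplified by a Smart-seq protocol and sequenced by the authors, 2 biological replicates per group. The authors mapped reads with BWA to mm9 and deposited FPKM per row; the program that made them is not given in the sources used here, and loci lie on GRCm38. All 8 value columns were used (0 left out); their names give stage, replicate and mu or nc, read as cKO and WT. For 285 repeated symbols the row with the highest mean was kept, except in sums of FPKM, which used all rows. Tests used limma 3.58.1 in R 4.3.3 on log2(FPKM + 1), 1 model of 4 group means with a mean-variance trend, two-sided, with Benjamini-Hochberg adjustment over 10018 features. The pseudocount understates changes of low rows. Hairpins were folded with ViennaRNA 2.7.2. The procedure was tested on simulated data. Named were loci meeting the rule, those overlapping or like them, and listed genes. Loci and lists were chosen with earlier results of these data known. In whole hearts, fewer cells of a type and less RNA per cell cannot be told apart.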

Additional observations from a re-analysis of the deposited data

How the results depend on the processing

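No locus was called under any scaling, pseudocount, filter, rank or leave-one-out alternative. The exception was limma on the E8.5 libraries alone, with 1 call (*Mir703*). With a replicate block the count stayed at 0 in all 6 comparisons. Equal replicate numbers did not pair the libraries (correlations of deviations from -0.116 to 0.0168), and the crossed pairing for the stages in WT, added after seeing the data, also called 0. Without absolute depth, values near 0 have no interval.

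The number of loci apart by 1.5-fold was 1 at E8.5 and 1 at E9.5, and ranged from 1 to 2 at each stage when single libraries were left out. Over both stages it ranged from 0 to 1, between the stages in WT from 0 to 3, and between them in cKO from 1 to 3. Under quantile normalization it was 2 at E9.5 and 1 between stages in WT, and under quantile normalization or median-ratio scaling it was 1 instead of 2 between stages in cKO. E9.5 cKO libraries held 1 locus each at 1 FPKM or more, and 1 each among loci seen in at least 4 libraries. Over loci of 300 bp or more as the denominator, the share rose in all 8 libraries, to 0.109% and 0.487% in WT and 40.9% and 66.7% in cKO at E8.5, and to 14.1% and 0.505% in WT and 36.2% and 0.0709% in cKO at E9.5. Leaving out single libraries moved the log2 change of *Mir8112* at E8.5 from -0.46 (without E8.5 WT replicate 1) to 1.49, and that of *Mir703* at E9.5 from -8.52 (without cKO replicate 1) to 9.79, with -7.88 without WT replicate 2. The -8.52 is set by the pseudocount, since the remaining cKO library is listed at 0. For *Mir3473f* at E8.5 it ranged from -7.38 to -1.32. Adjusted p over the alternatives ranged from 0.000109 to 1 for *Mir703* at E8.5 and from 0.0657 to 0.889 for *Mir8112* at E9.5.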
